A study of Mus musculus with 16 samples.

Results

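The genes described here are 10 members of the ATF4 branch of the integrated stress response and of amino acid supply: Atf4, Asns, Ddit3, Trib3, Sesn2, Chac1, Psat1, Phgdh, Slc7a11 and Slc1a5. They were chosen by name, 10 of the 21911 protein-coding genes annotated in GENCODE vM21, and their open chromatin was read from 16 lists of ATAC-seq peaks. ATAC-seq marks open chromatin by the insertion of a transposase into accessible DNA. The lists came from 8 tissues (liver, spleen, heart, lung, kidney, muscle, and brown and white adipose) of male C57BL/6 mice that were either fed or fasting. Per the study's methods the fasting lasted 24 h, and the animals were obtained at an age of 12 weeks. Each library was made from tissue powder pooled over the 3 mice of a state. There was therefore 1 library per tissue and state, no replicate, and the tissues of a state shared their mice.

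In the integrated stress response, kinases that sense amino acid shortage, unfolded protein, double-stranded RNA or heme shortage phosphorylate the initiation factor eIF2. General translation then slows while translation of the transcription factor ATF4 goes up. ATF4 pairs with C/EBP proteins on composite elements near genes for amino acid synthesis, amino acid import, redox control and feedback. Since ATF4 itself is controlled largely at translation, the chromatin of its own gene need not follow its activity. Liver, muscle and adipose tissue meet fasting by releasing or reusing amino acids, and the comparison of fed with fasting tissue asks whether chromatin at these genes differed with feeding state.

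Each gene was given a promoter percentile in each library. This was the rank of the strongest peak with its summit within 3 kb of any annotated start, by −log10 p among all peaks of that list, from 0 for no peak to 100 for the strongest peak. A rank within a list needs no scaling between libraries, whose sequencing depth differed, but it can still depend on depth. With peaks thinned to equal depth, as used below, Asns in fed muscle went from 47.0 to 67.6. The background of a library, taken as the most common expected tag number at its summits and proportional to depth, ran from 2.8 tags in fed liver to 12.8 in fed brown adipose. Expected tags at a single peak could be far higher, as at Ddit3 in fed brown adipose (219). Tags over background, used below, refer to the library value. The lists held 298996 to 299529 peaks. The 5-gene marker lists of 7 of the 8 tissues had their highest mean promoter percentile in their own tissue. The exception was the white adipose list, at 93.1 in brown and 90.0 in white adipose. Epididymis markers, looked at because the epididymis can be cut with white adipose tissue, averaged 41.5 in fed and 11.5 in fasting white adipose, with a peak at 3 and 1 of 5 genes, but also 29.4 in fed spleen and 25 in fed heart.

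All 10 genes had a promoter peak in all 16 libraries, which 61.4% of the protein-coding genes had. Their median promoter percentile over the libraries was 89.6, against 92.0 over all genes with a promoter peak. Some genes stayed high in every library, and others varied more between libraries. In 3 of the 10 genes, Ddit3, Trib3 and Sesn2, no library was below 80, a level that 47.7% of genes held throughout. The lowest level of the set was 14.3, for Slc7a11 in fasting kidney.

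**Figure D1:**
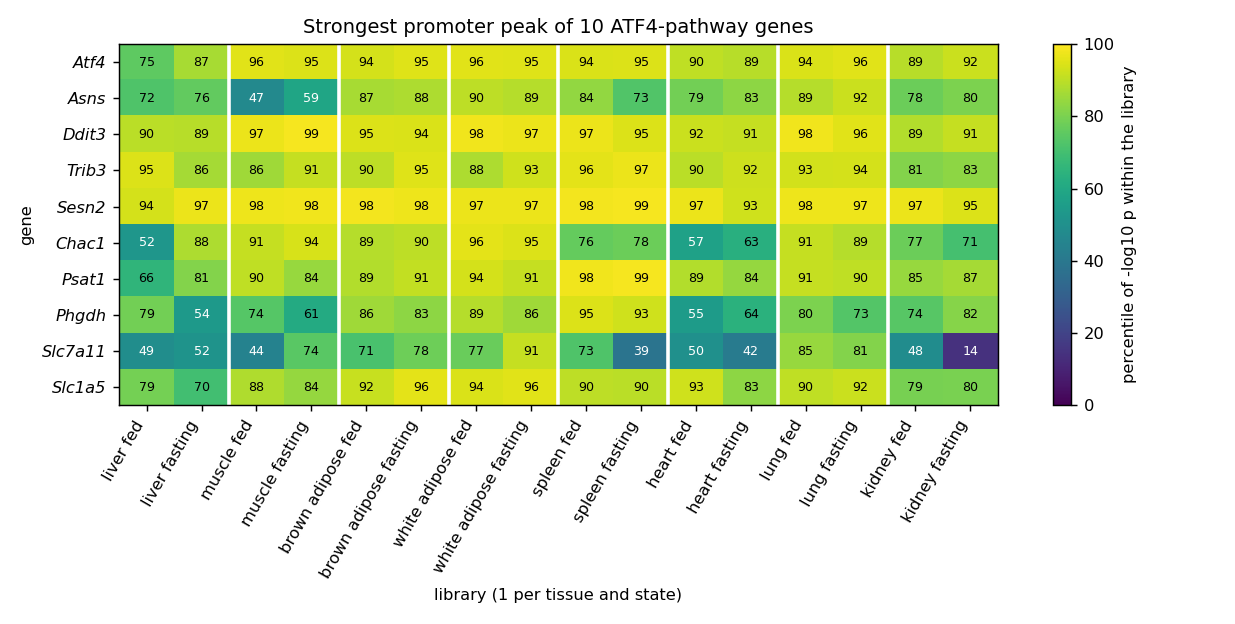
Promoter percentile (color and printed value, rounded; 0 is no peak and 100 the strongest peak of the list) of each gene (rows) in each library (columns, fed and fasting side by side, 1 library each). Sesn2 and Ddit3 stay above 88 throughout, Asns is lowest in muscle, Chac1 is lowest in fed liver and Slc7a11 in fasting kidney.

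To ask whether tissue or feeding state went with the larger differences, the fed library of each tissue was matched with the fasting libraries of all tissues in all 40320 ways. The summed difference of the true tissue pairs was then placed among them (exact permutation test, one-sided, Benjamini-Hochberg over 19694 genes). By this test 6 of the 10 genes differed between tissues beyond the gap between the states: Atf4, Asns, Ddit3, Chac1, Psat1 and Slc1a5, with adjusted p from 0.0162 (Slc1a5) to 0.0309 (Chac1). Over all genes the share was 48.1%, so the count of 6 is near the background. The other 4 genes did not pass, with adjusted p of 0.0706 for Phgdh, 0.145 for Slc7a11, 0.147 for Trib3 and 0.294 for Sesn2. Single tissues decided several of these calls. Atf4 missed the threshold without liver (0.0919), heart (0.0517) or kidney (0.0595), Asns without muscle (0.0848), and Psat1 without liver (0.0842) or spleen (0.1). Chac1 missed it without muscle (0.0579), white adipose (0.0583), spleen (0.0833) or heart (0.0787), while without liver Trib3 (0.0367), Sesn2 (0.0232) and Phgdh (0.0451) passed. The mean percentile over the fed and fasting libraries was highest in white adipose for 4 of the 10 genes (Atf4, Chac1, Slc7a11 and Slc1a5; 12.7% of genes with a peak in all libraries). It was highest in spleen for another 4 (Trib3, Sesn2, Psat1 and Phgdh; 16.3%). It was lowest in liver for 4 (Atf4, Ddit3, Psat1 and Slc1a5), where 33.8% of all genes were lowest, and lowest in heart for 3 (Sesn2, Chac1 and Phgdh; 8.83%).

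Averaged over tissues, none of the 10 genes differed between fasting and fed. In an exact permutation test that flips the sign of each tissue's fasting minus fed percentile (two-sided), 0 of the 10 genes passed after Benjamini-Hochberg adjustment, as did 0% of the 19694 genes. At an unadjusted p under 0.05 the count was also 0 of 10, against 5.25% of all genes. The smallest p that 8 tissues allow is 0.00781, and 3078 genes would have to reach it for any adjusted call, while 181 did. The mean difference ran from −4.5 points for Phgdh (SD over tissues 10.9, p = 0.297, exact permutation test) to 4.46 points for Chac1 (SD 12.9, p = 0.492, exact permutation test). The median difference over the 10 genes was 0.314 points, and over all genes it was −0.0839.

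Atf4, the transcription factor at the head of this branch, lies at chr15:80255184-80257541 on the plus strand (GRCm38, as are all coordinates here). Its promoter percentile in the fed libraries (liver, muscle, brown and white adipose, spleen, heart, lung, kidney) was 75.0, 95.6, 93.5, 95.7, 94.5, 90.3, 94.4 and 89.3. In the fasting libraries, in the same order, it was 87.0, 94.7, 95.3, 95.2, 94.8, 89.2, 95.6 and 91.8. Both liver libraries were thus the lowest of their state, and the other 14 libraries lay between 89.2 and 95.7. Liver was also the one tissue with a gap between the states of 10 points or more. The summit of the strongest peak lay at positions from −250 to 511 bp relative to the nearest annotated start, upstream of it in 9 libraries and downstream in 7.

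Ddit3, which encodes CHOP, a transcription factor of prolonged stress, lies at chr10:127290774-127296288 on the plus strand. Its promoter percentile ran from 88.6 in fed kidney through a median of 94.7 to 98.6 in fasting muscle. Muscle (96.9 fed and 98.6 fasting) and white adipose (97.8 and 97.2) were at the top, and liver (89.7 and 89.4) and kidney (88.6 and 91.1) at the bottom, without overlap between the 2 pairs of tissues. Starts of Gm4189, which runs the opposite way, Gm20492 and Mbd6 lie within 3 kb of a Ddit3 start. ATAC-seq has no strand, so a peak there cannot be given to 1 of these transcripts.

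Trib3 encodes a pseudokinase that binds AKT and feeds back on ATF4, and lies at chr2:152337422-152344032 on the minus strand. Its percentile in the 8 fed tissues, in the order above, was 94.8, 85.7, 90.0, 87.7, 95.9, 89.7, 93.0 and 81.4, and in the fasting tissues 86.4, 91.2, 95, 92.9, 97.1, 92.3, 93.7 and 82.9. Fasting was higher in 7 of 8 tissues, by up to 5.56 points (muscle), and in liver the difference was −8.45 points. Such a 7 of 8 or 8 of 8 excess was found in 2.43% of all genes. At equal depth the heart difference of 2.58 points turned to −0.4 points. The mean difference of 1.67 points (SD 4.53) did not pass the test (p = 0.328, exact permutation test). The mean of the 7 tissues other than liver was 3.12 points, which is given without a test because liver was the one tissue of the opposite sign. By tags over background, Trib3 was above the tissue's median gene in 7 of 8 tissues, as was Atf4, against 4.87% of genes in 7 or 8. For Atf4 the excess on the log2 scale was 0.04 in muscle, brown adipose and heart, 0.07 in spleen, 0.12 in kidney, 0.21 in lung and 0.41 in liver. Some of these ratios set different sites side by side. The summits of the states lay 951 and 1023 bp apart for Atf4 in brown adipose and kidney, and 2863 and 507 bp apart for Trib3 in white adipose and kidney.

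The position of the strongest Trib3 peak differed between tissues. In both brown adipose libraries and in fasting white adipose it was not at the start but at positions −2932 to −2923 bp, in an intron of the transcript Gm14164. In muscle, fed white adipose, fasting liver and fed kidney it lay at −89 to −47 bp from the nearest start, and in the remaining libraries 329 to 407 bp downstream. The upstream region (chr2:152346717-152347294) stood at 90.0 and 95 in fed and fasting brown adipose, 67.3 and 92.9 in white adipose, and 57.8 and 75.9 in liver. It had no peak in muscle, spleen, heart, lung or kidney. The 121 bases around its summit in fed brown adipose (chr2:152346904-152347024, minus strand, the 21 bases at the summit in capitals) are shown because this region had peaks in adipose tissue and liver alone.
Trib3 upstream: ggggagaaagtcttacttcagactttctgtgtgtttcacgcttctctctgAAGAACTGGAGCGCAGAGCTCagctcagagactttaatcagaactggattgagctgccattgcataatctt
No C/EBP-ATF core, in the letters given below, is in this window.

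**Figure D2:**
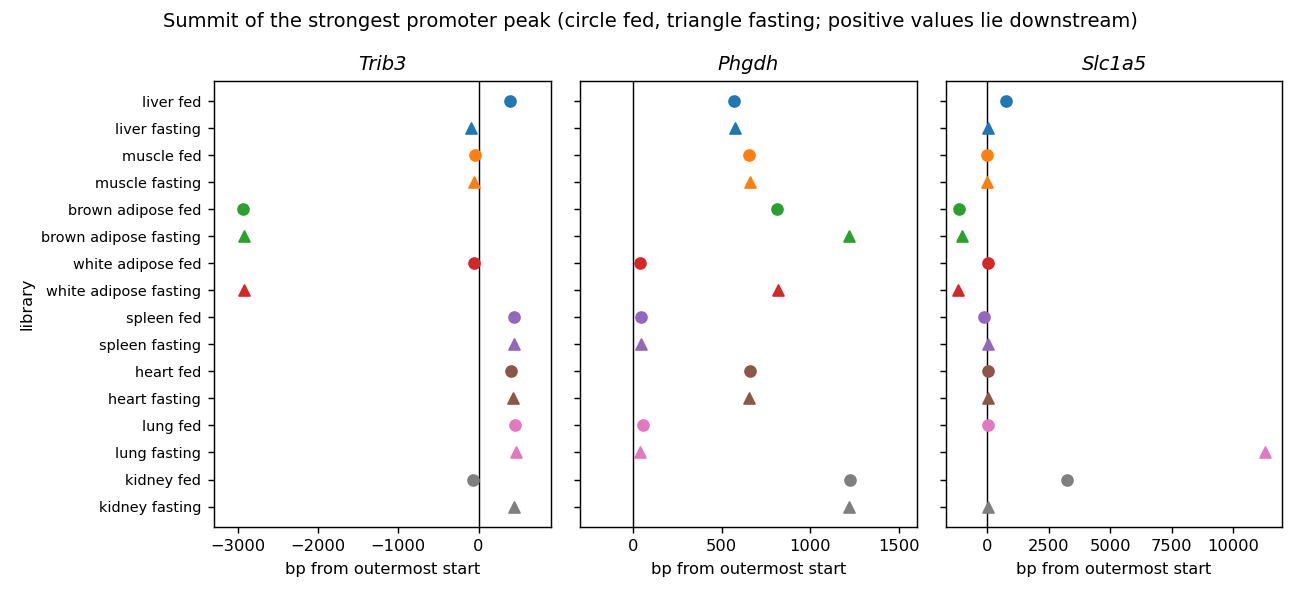
Distance in bp from the outermost annotated start to the summit of the strongest promoter peak of Trib3, Phgdh and Slc1a5 (horizontal axis, downstream positive) in each library (rows; circle fed, triangle fasting, color by tissue). In 3 adipose libraries the Trib3 summit is at −2932 to −2923 bp and the Slc1a5 summit at −1181 to −1039 bp, and the Phgdh summit is at 40 to 55 bp in spleen and lung and at 1221 to 1223 bp in kidney.

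Sesn2, which encodes a sestrin that binds leucine and restrains mTORC1, was the most evenly open of the 10 genes. It lies at chr4:132492032-132510501 on the minus strand, and its percentile ran from 92.8 in fasting heart through a median of 97.2 to 98.6 in fasting spleen. The range of its tissue means was 3.63 points. The summit stayed within 4 to 47 bp downstream of the start in all 16 libraries. The transcript Gm12981 starts within 3 kb.

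Chac1, a glutathione-degrading enzyme, lies at chr2:119351229-119354381 on the plus strand. Its percentile in the fed tissues was 52.4, 91.2, 88.9, 95.8, 76.5, 57.4, 91.1 and 77.4, and in the fasting tissues 87.6, 93.8, 90.0, 94.6, 77.6, 62.9, 89.0 and 70.7. The libraries of muscle, both adipose tissues and lung lay at 88.9 or above, and those of spleen, heart and kidney at 77.6 or below, without overlap. Fed liver belonged with the low tissues and fasting liver lay between the groups.

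The enzymes of amino acid synthesis showed different tissue patterns. Asns makes asparagine and lies at chr6:7675169-7693254 on the minus strand. Its percentile was 72.3, 47.0, 86.8, 90.2, 83.9, 78.9, 88.7 and 77.6 in the fed and 75.8, 58.9, 87.7, 88.7, 72.9, 82.9, 91.9 and 80.3 in the fasting tissues. Muscle was the lowest tissue in both states, below every other library, and lung and white and brown adipose were the highest at 86.8 or above. At equal depth muscle stood at 67.6 and 63.8.

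Phgdh and Psat1 encode the first and second enzymes of serine synthesis from glycolysis. Phgdh (chr3:98313170-98339990, minus strand) stood at 78.6, 73.7, 85.9, 88.7, 94.9, 54.9, 80.2 and 74.2 in the fed and 53.6, 61.2, 83.0, 85.6, 92.7, 64.0, 73.1 and 82.0 in the fasting tissues. Psat1 (chr19:15904678-15947337, minus strand) stood at 65.6, 90.5, 88.6, 93.5, 97.9, 88.6, 91.1 and 84.7 and at 81.4, 84.4, 90.9, 91.2, 98.6, 84.2, 90.3 and 86.7. Both genes were highest in spleen, a tissue rich in lymphocytes, and there no other tissue's library reached the lower of the 2 spleen values. Psat1 was lowest in liver. The lowest tissue means of Phgdh were in heart (59.4), liver (66.1) and muscle (67.5), but in liver only the fasting library was low.

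Both serine genes used more than 1 site. At the outermost start of Phgdh (chr3:98339772-98340190) the percentile was 94.9 and 92.7 in fed and fasting spleen, 80.2 and 73.1 in lung, 88.7 and 69.6 in white adipose, and it had no peak in either liver library. The spleen libraries had a further region inside the gene (chr3:98335938-98336216) at 91.3 and 88.4, which otherwise had a peak only in fed lung, at 22.8. In kidney and fasting brown adipose the strongest Phgdh peak lay 1220 to 1223 bp inside the gene, in an intron. That region (chr3:98338644-98338931) had a peak in 13 of 16 libraries and none in fasting liver or in either heart library. Its 121 bases around the fed kidney summit (chr3:98338707-98338827, minus strand, summit bases in capitals) are printed for comparison with the Trib3 site.
Phgdh first intron: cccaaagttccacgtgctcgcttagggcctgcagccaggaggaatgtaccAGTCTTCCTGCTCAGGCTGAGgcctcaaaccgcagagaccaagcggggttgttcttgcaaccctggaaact
At the outer start of Psat1 (chr19:15946655-15947394) the percentile was 83.9 and 90.3 in lung, 81.7 and 81.5 in kidney, 35.5 and 47.7 in spleen and 9.83 in fed heart. White adipose had a peak of 89.4 there when fed and none when fasting. The epididymis markers were also higher in fed white adipose, as given above, and their part in this gap was not tested.

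Slc7a11 and Slc1a5 encode amino acid transporters, the cystine-glutamate exchanger and the neutral amino acid and glutamine carrier. Slc7a11 (chr3:49892526-50443614, minus strand) was the most variable of the 10 genes, with an SD of 18.7 points between tissue means. Its percentile was 49.0, 44.2, 71.3, 77.2, 72.6, 50, 84.6 and 48.5 in the fed and 51.5, 74.4, 77.9, 91.1, 38.6, 41.6, 81.3 and 14.3 in the fasting tissues. White adipose, lung and brown adipose were at 71.3 or above in both states, and liver, heart and kidney were at 51.5 or below. These levels rest on few tags: 13 and 15 at the summit in liver, 17 and 18 in heart, and 32 and 17 in kidney. With all libraries thinned to equal depth the order of the states turned in heart, at 48.3 fed and 74.3 fasting, and in brown adipose, at 79.1 and 69. Brown adipose then no longer stood at 71.3 or above in both states, nor heart at 51.5 or below.

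Among 16317 other genes with a peak in at least 8 libraries, those whose percentile followed Slc7a11 most closely over the 16 libraries were Vgf, Cnppd1 and Adrm1, with Pearson correlations of 0.836, 0.819 and 0.818. These are descriptive values over libraries that share mice and differ in depth. The 3 genes moved within a much narrower range, 87.7 to 96.0 for Vgf, 88.8 to 96.4 for Cnppd1 and 97.0 to 99.4 for Adrm1.

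Slc1a5 (chr7:16781340-16798274, plus strand) ran from 69.7 in fasting liver through a median of 89.7 to 96.0 in fasting brown adipose. Brown adipose (91.5 and 96.0) and white adipose (94.4 and 95.6) lay above both libraries of liver (79.1 and 69.7), muscle (87.9 and 84.3), spleen (90.0 and 89.5) and kidney (79.3 and 79.7). As with Trib3, the strongest peak in both brown adipose libraries and fasting white adipose lay upstream, here at positions −1181 to −1039 bp. That region (chr7:16779978-16780617) was at 91.5 to 96.0 in the 4 adipose libraries, at 82.0 and 84.0 in lung, 73.8 and 72.8 in heart, 70.8 and 72 in muscle and 14.2 and 74.8 in kidney, and without a peak in liver and spleen.

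Composite C/EBP-ATF elements were looked for in the promoter sequences, because they are the sites through which ATF4 is known to act. The letters searched were TGATGNAA on either strand. RefSeq promoter sequences on GRCm38, running from 250 bases before to 50 after a start, were found for 9 of the 10 genes. The core was in those of 4 genes (Asns, Trib3, Chac1 and Slc7a11), against 3.97% of the 32851 promoter sequences of all genes. The 30-base windows below, on each gene's own strand with the core in capitals, show where it lies.
Asns, chr6:7693214-7693243: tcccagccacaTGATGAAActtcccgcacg
Chac1, chr2:119351038-119351067: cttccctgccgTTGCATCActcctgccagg
Trib3, chr2:152344028-152344057: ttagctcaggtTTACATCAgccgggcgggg
Slc7a11, chr3:50443661-50443690: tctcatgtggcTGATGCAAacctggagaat
Slc7a11, chr3:50443642-50443671: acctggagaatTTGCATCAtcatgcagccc
The core begins 23 bases before the RefSeq start in Asns, 193 before it in Chac1, 14 after it in Trib3, and 66 and 47 before it in Slc7a11. The cores of Slc7a11 lie on opposite strands. Within 500 bases of the start, where 11.7% of all sequences hold a core, Ddit3 and Sesn2 joined these 4 genes.
Ddit3, chr10:127290481-127290510: gttgccaaacaTTGCATCAtccccgccccc
Sesn2, chr4:132510742-132510771: gtgaagtcccgTTTCATCAcgcagccctaa
No match for these letters was in the windows of Atf4, Psat1 and Phgdh.

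Peaks covered the core of Asns, Trib3, Sesn2 and Chac1 in all 16 libraries, that of Ddit3 in 14, and the cores of Slc7a11 in 11 and 12. The summit of the strongest promoter peak lay within 100 bases of a core in 12 of 16 libraries for Asns, 9 for Chac1, 5 for Trib3, 4 for Slc7a11, 2 for Phgdh and 1 for Slc1a5. Per library this held for 0 to 4 of the 10 genes, and for 0.846% to 1.38% of all genes with a promoter peak. A match is a run of letters and not evidence of binding.

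Within a tissue, fed and fasting could be compared only as 1 library against 1, without a test. A difference of 10 percentile points or more was found in 6 of 80 gene and tissue pairs with fasting higher and in 5 with fasting lower. Over all genes with a peak in every library, 2.29% of pairs were that much higher and 3.6% that much lower. Of the 10 genes, liver had 3 that were higher and 1 that was lower (all genes 4.55% and 6.62%). Muscle had 2 and 1 (1.49% and 2.7%), white adipose 1 and 0 (1.98% and 4.04%), spleen 0 and 2 (2.89% and 3.66%) and kidney 0 and 1 (1.81% and 1.43%). Brown adipose, heart and lung had none. At equal depth heart had the largest turns: Phgdh, at 54.9 fed and 64.0 fasting, went to 64.3 and 32.4, a difference of −31.9 points on 18 and 22 tags, and Slc7a11 had a difference of 26 points. In brown adipose Slc7a11 then had one of −10.1 points, and Slc1a5 had −10.5 points in liver and −10.9 points in heart.

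**Figure D3:**
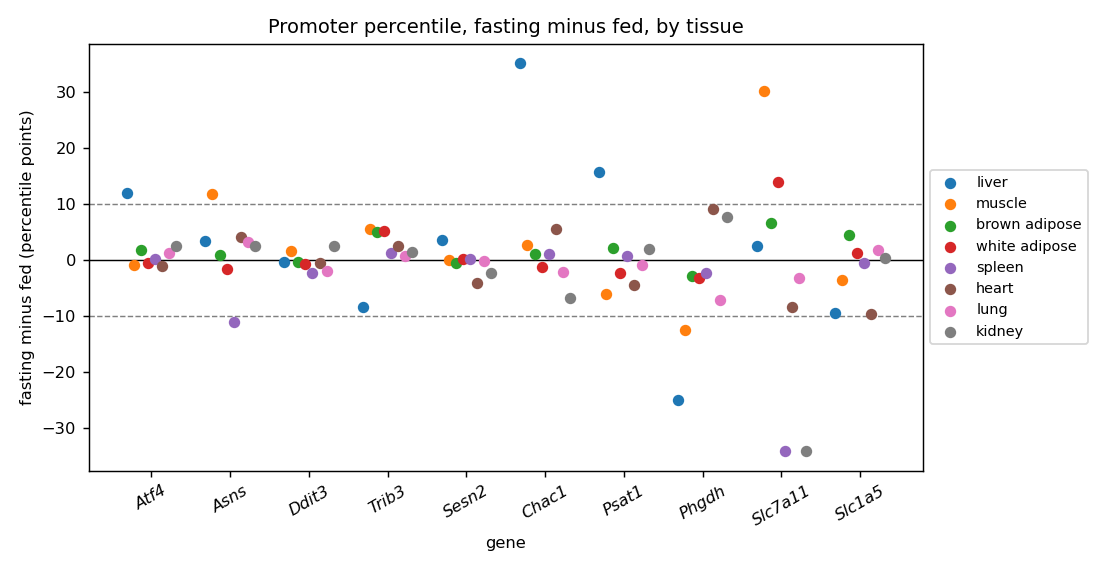
Fasting minus fed promoter percentile (points) for each gene, 1 dot per tissue; dashed lines mark 10 points in each direction. Most of the 80 dots lie within the lines, and Chac1 in liver (35.2), Slc7a11 in muscle (30.2), spleen and kidney (−34.1 and −34.2) and Phgdh in liver (−25) lie farthest out.

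In liver, Chac1 was 35.2 points higher in fasting, Psat1 15.8 points and Atf4 12 points, while the difference for Phgdh was −25 points. With peaks thinned to equal depth Chac1 was at 52.4 and 87.7. The first 3 genes started from fed percentiles between 52.4 and 75.0. Middle ranks move more readily than high ones, and among genes at fed liver percentiles of 50 to 80, 21.3% were 10 points or more higher in fasting and 24.3% lower. Of the 6 genes described here in that band, 3 were higher and 1 lower.

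Tags at the summit give the same comparison on a scale of counts. In liver the Chac1 peak had 20 tags fed and 69 fasting, with library backgrounds of 2.8 and 2.82 tags. The expected tags at the peak itself were 5.83 fed and 8.18 fasting, and its fold enrichment was 3.08 and 7.62. The ratio of tags over library background was 3.43 (95% exact interval 2.06 to 5.95, counting error only). It does not correct for the expected tags at the peak. The whole fasting liver library stood higher in this measure, with a median over genes of 0.89 on the log2 scale, so Chac1 was 0.88 above that median. Only 0.773% of genes had as large a ratio. Sesn2 went from 50 to 137 tags (5.81% of genes as high), Atf4 from 37 to 92 (12.2%) and Psat1 from 16 to 36 (23.6%). Phgdh had 22 tags fed and 16 fasting, a ratio of 0.722 with an interval of 0.354 to 1.44, and 98.7% of genes had as high or a higher ratio. Slc7a11 had 13 and 15 tags, a ratio of 1.15 (0.508 to 2.62). For Slc1a5 the strongest summit lay at different sites in fed and fasting liver. The region at its start (chr7:16780692-16781683) had 16 tags fed and 26 fasting, and the next one downstream (chr7:16781728-16782595) had 25 and 16. Over the 80 gene and tissue pairs, the strongest summits of the 2 states lay over 500 bp apart in 14, none of them among the 11 pairs that differed by 10 points or more without thinning.

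In muscle, where the median over genes was −0.02, Slc7a11 had 24 tags fed and 82 fasting and a ratio of 2.07 (1.3 to 3.41). A ratio as high was found in 0.297% of genes. Trib3 had 93 and 239 tags with a ratio of 1.56 (1.22 to 2.0; 1.34% of genes as high). Chac1 had a ratio of 1.26 (1.1 to 1.44) and Asns, with 25 and 53 tags, one of 1.28 (0.783 to 2.15). The Asns difference of 11.9 points in percentile became −3.83 points at equal depth. Phgdh had a percentile difference of −12.5 points and a ratio of 0.678, whose interval of 0.455 to 1.01 included equal levels.

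In white adipose, Trib3 had a ratio of 1.3 (1.02 to 1.66), which 1.16% of genes reached, while the median over genes was −0.39 on the log2 scale. Slc7a11 was 14 points higher in fasting, with a ratio of 1.15 (0.838 to 1.58; 2.61% of genes as high). The strongest Trib3 summit was near the start in fed and at the upstream site in fasting white adipose, so that ratio sets different sites side by side.

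In spleen the percentile difference was −11 points for Asns, on 34 tags fed and 22 fasting, and −34.1 points for Slc7a11, on 21 and 14 tags. In kidney it was −34.2 points for Slc7a11, on 32 and 17 tags with a ratio of 0.536 (0.279 to 0.994), and 99.8% of genes had as high or a higher ratio. Intervals in spleen included equal levels for both genes, 0.344 to 1.09 for Asns and 0.3 to 1.31 for Slc7a11. The size of these differences depended on the ranking. At equal depth Slc7a11 in spleen was at −8.87 points. Ranked among promoter peaks only, it was at −5.95 points in kidney and 9.56 points in muscle.

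**Figure D4:**
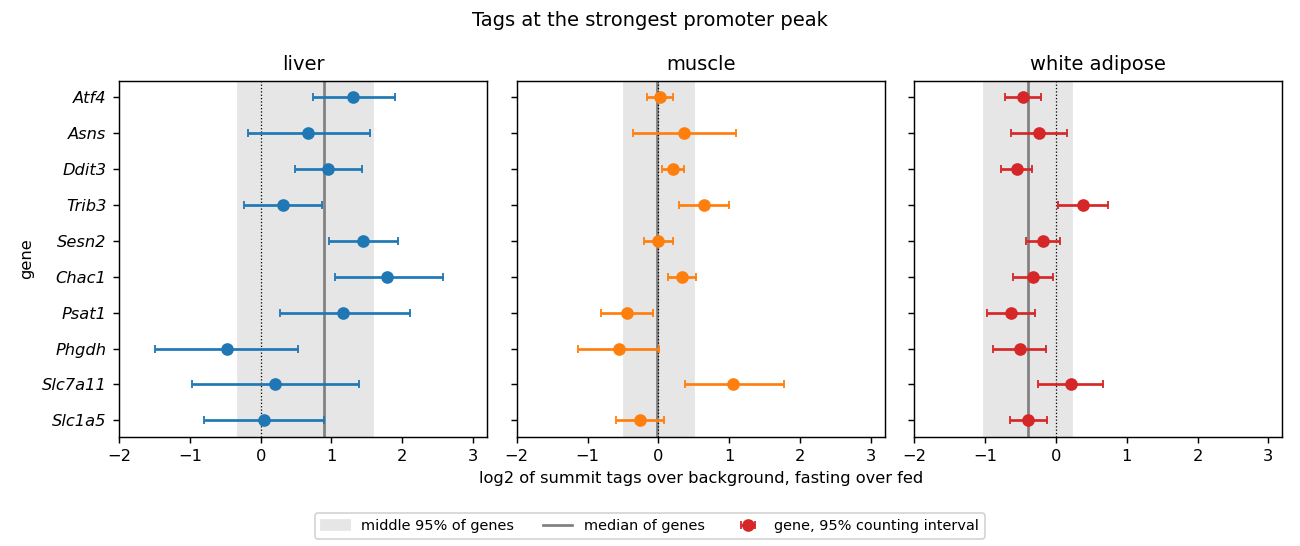
Log2 ratio, fasting over fed, of tags over background at the strongest promoter peak in liver, muscle and white adipose (1 library per state). Points are genes with 95% exact intervals for counting error; the gray line and band are the median and the middle 95% of 13460 genes. Chac1 in liver (1.78), Slc7a11 (1.05) and Trib3 (0.64) in muscle and Trib3 in white adipose (0.38) lie above the band, and Phgdh in liver (−0.47) and muscle (−0.56) lies below it.

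Peaks were also counted over each gene extended by 10 kb on both sides, as a share of all peaks of the list. By the matching test on this share, 5 of the 10 genes differed between tissues beyond the states (Trib3, Sesn2, Chac1, Psat1 and Slc1a5; adjusted p 0.00761 to 0.0228), near the 54.9% of all genes. Without kidney 3 passed (34.4% of all genes), Chac1 (0.0632) and Psat1 (0.0612) being lost. Chac1 was also lost without liver (0.052) or spleen (0.0849), and Psat1 without white adipose (0.0503). None differed between fasting and fed after adjustment (0 of 10, and 0% of 20714 genes). At an unadjusted p under 0.05 the count was 1 of 10, Sesn2, against 8.53% of all genes. Sesn2 had a higher share in fasting in 7 of 8 tissues, as 7.29% of genes did in 7 or 8, with a mean log2 ratio of 0.104 (p = 0.0391, adjusted p = 0.495, exact permutation test), and over the alternatives its p ran from 0.0156 to 0.938. Its peak number was 14 in both muscle libraries and 33 to 37 in both adipose tissues and kidney. Psat1 had 42 and 39 peaks in fed and fasting white adipose and 9 to 16 in liver, muscle and heart. Slc7a11, the longest of the genes, had 41 peaks in fed and 11 in fasting liver, and 41 and 16 in white adipose. Many of its fed liver peaks rest on few tags, as given below. Its mean log2 ratio of −0.498 did not pass the test (p = 0.125, exact permutation test).

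Overlapping peaks of all libraries merged into 309 regions over the 10 extended genes. Of these, 19 (6.15%) were present in all 16 libraries and 142 (46%) in 1 library only, against 2.78% and 52.5% of the 904157 regions merged in the same way over the whole genome. The 142 included 38 found only in fed liver (26.8%, genome 15.3%) and 16 found only in fed white adipose (11.3%, genome 3.25%). Slc7a11, the longest gene, held 30 of the 38 and 10 of the 16, and fed liver was the library with the most merged regions, 239804. The 30 in fed liver, the library of lowest background (2.8 tags), had 10 to 18 tags at the summit. Only 3 of the 142 reached the 80th percentile, all in introns of Slc7a11 in fed white adipose, at 90.6 (chr3:50317999-50318523), 90.2 (chr3:50390698-50391197) and 87.0 (chr3:50415551-50415831). The epididymis markers were higher in the same library, and their part was not tested. A further 24 regions (7.77%, genome 9.94%) were present in both libraries of 1 tissue and in no other tissue, 8 of them in kidney and 5 in liver. Genome shares by tissue were not computed, so this split cannot be called particular to these genes.

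Of the 24 regions private to a tissue, 1 reached the 80th percentile. It was in liver and lay in an exon of the neighbor Mief1 upstream of Atf4 (chr15:80250379-80250897, 83.8 fed and 53.8 fasting). In kidney the strongest were an intron of Phgdh (chr3:98329415-98329754, 72.3 and 72.7) and a site beyond the outer start of Psat1 (chr19:15948515-15948755, 70.3 and 65.2). In spleen a Phgdh intron (chr3:98337784-98337958) stood at 69.0 and 53.2. In heart an intron of Slc7a11 (chr3:50004408-50004603) stood at 78.3 fed and 20.3 fasting. In white adipose a Psat1 exon (chr19:15916734-15916975) stood at 64.7 and 13.1. The private regions of muscle, brown adipose and lung stayed below 45.

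Beyond 3 kb from any start of the gene, the strongest region of Atf4 (chr15:80263918-80264900) was an exon of the neighbor Rps19bp1 and that of Trib3 (chr2:152331830-152332959) an exon of the neighbor Rbck1. Both were open in all 16 libraries, with mean percentiles of 94.9 and 98.1, and that of Ddit3 was in Mbd6. The strongest such region of Asns differed by tissue. An intron of Asns (chr6:7688395-7688749) had peaks in brown adipose (83.8 and 87.2) and white adipose (48.4 and 78.3) and in no other tissue. An intron of Ddit3 (chr10:127293022-127293433), picked after its values were seen, had peaks in muscle (66.5 and 59.1), brown adipose (80.1 and 89.7) and white adipose (28.6 and 65.1) alone.

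Chac1 had a strong region just past its end (chr2:119354548-119356190), at 83.6 to 97.0 in liver, muscle, both adipose tissues, heart and kidney. It had no peak in lung and fed spleen and stood at 29.7 in fasting spleen. The exon at the 3′ end of Psat1 (chr19:15904631-15905207) was likewise without a peak in spleen and fed lung, where the promoter of the gene was at 91.1 or above. It stood at 85.6 and 98.1 in fed and fasting liver, where the Psat1 promoter was lowest. But it was also high in brown (90.3 and 92) and white adipose (82.5 and 90.8), where the promoter was at 88.6 or above. In muscle it stood at 51.8 and 80.2, in heart at 22.4 and 87.9, in kidney at 84.3 and 89.4 and in fasting lung at 11.6. Upstream of Sesn2 an intergenic region (chr4:132515160-132516082) was open in all 16 libraries, highest in spleen (99.0 and 98.8) and lowest in liver (85.4 and 83.3). The strongest distal regions of Phgdh, Slc7a11 and Slc1a5 had mean percentiles of 48.3, 76.0 and 57.3.

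**Figure D5:**
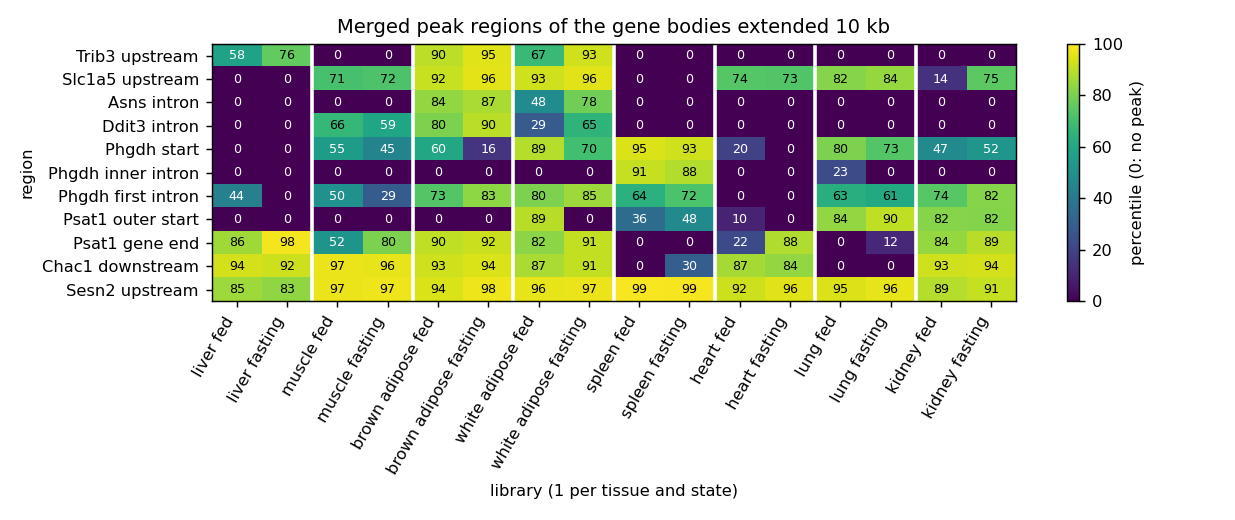
Percentile (color and printed value, rounded; 0 is no peak) of 11 merged regions at the genes (rows) in each library (columns, 1 library each). The Trib3 upstream and Asns intron regions are open in adipose tissue and not in muscle, spleen, heart, lung or kidney, and the Chac1 downstream region is weak or without a peak in spleen and lung.

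The wider pathway was described with 7 lists of 56 genes, of which 55 were found under their symbols. A promoter peak in all 16 libraries was found for 54 of them, and Slc7a3, a cationic amino acid transporter, had no promoter peak in any library. By the matching test 28 of the 55 differed between tissues beyond the states, near the background of 48.1%. They were 6 of 12 stress regulators, 3 of 4 secreted or surface proteins, 4 of 6 kinases and eIF2 genes, 4 of 7 genes of serine and one-carbon metabolism, 4 of 6 other amino acid enzymes, 3 of 8 transporters and 4 of 12 tRNA synthetase and tRNA export genes. None passed the fasting test after adjustment. At an unadjusted p under 0.05 there were 0 of 55 higher and 2 lower in fasting. Of 19694 genes 345 were higher and 689 lower (5.25% together), so the counts of the lists do not stand out. The 2 lower genes were Mthfd1l, of mitochondrial folate metabolism, at −1.84 points (p = 0.0234, exact permutation test), and Eif2ak4, which encodes the amino acid sensing kinase GCN2, at −0.122 points (p = 0.0391, exact permutation test). Eif2ak4 was picked after its value was seen.

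Among stress regulators, the transcriptional regulators Nupr1 and Jdp2 had the widest range of tissue means. Nupr1 was at 98.7 in white adipose and 48.7 in spleen, Jdp2 at 96.5 in lung and 60.2 in liver, and Atf5 at 98.2 in white adipose and 82.4 in liver, and all 3 passed the tissue test. Among stress proteins of the cell surface and the secreted pool, Stc2, a stanniocalcin, was at 94.1 in white adipose and 13.8 in liver, and the lipoprotein receptor Vldlr at 94.4 in brown adipose and 48.7 in spleen. Fgf21, a hormone that the liver secretes in fasting, was highest in liver at 76.7 and lowest in heart at 38.2, and it did not pass the tissue test (adjusted p = 0.218, exact permutation test). Its fasting minus fed difference did not pass either (p = 0.523, exact permutation test).

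The eIF2 kinases and their partners were at 89.8 or above in every library. Their widest ranges were those of Eif2ak2 (99.7 in liver, 91.2 in muscle), Impact (95.8 in heart, 91.4 in kidney) and Eif2ak3 (99.0 in white adipose, 95.5 in kidney). In serine and one-carbon metabolism, Shmt2, the mitochondrial serine hydroxymethyltransferase, was at 98 in liver and 61.8 in brown adipose. Psat1, by contrast, was lowest in liver. Aldh1l2 was highest in kidney at 98.3 and lowest in muscle at 88.3, and Mthfd1l highest in spleen at 99.1 and lowest in brown adipose at 89.9.

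Among the other amino acid enzymes, the proline synthesis genes Aldh18a1 (98.8 in spleen, 80.7 in liver) and Pycr1 (97.1 in white adipose, 83.2 in liver) were lowest in liver, and Cbs, of sulfur amino acid metabolism, was lowest in spleen at 80.8 and highest in kidney at 96.8. The transporters Slc7a1 (98.5 in spleen, 76.9 in liver) and Slc36a4 (95.8 in lung, 80.8 in liver) were also lowest in liver, and Slc6a9 was lowest in spleen at 87.7. The tRNA synthetases were at 86.1 or above in every library, with the widest ranges in Aars (97.0 in muscle, 86.2 in heart), Tars (99.6 in muscle, 90.7 in liver) and Cars (99.6 in spleen, 93.7 in liver).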

How the data were processed

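Peak lists of 16 pooled ATAC-seq libraries were used. Per the labels and the study's methods, the authors aligned trimmed reads with Bowtie2 to GRCm38, removed duplicate reads, and called peaks with MACS2 in each library. The lists end near a fixed length, and the significance of their weakest peaks differed. The lowest −log10 q ran from 0.649 in fasting brown adipose to 5.26 in fed brown adipose. It did not simply follow depth: it was 3.2 in fed kidney, whose background (4.67 tags) was below that of fasting brown adipose (6.76). Only in 8 lists did every peak have q under 0.01. The deposited columns used were the fold enrichment ratio, computed by the authors, and the deposited −log10 p-value and −log10 q-value. Summit tags were solved from fold and p, and 100.0% of peaks gave a whole number with −log10 p within 0.001.

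Peaks were tested as separate summits. Starts were those of GENCODE vM21 (93504 starts of 21911 protein-coding genes), while the study used a later release. Promoter percentiles, tag ratios and gene body shares, log2 of (peaks + 0.5) per 100000 peaks, were computed for all genes. Exact permutation tests over matchings (40320) and sign patterns (256) were adjusted by Benjamini-Hochberg over all genes tested and called under 0.05. The libraries are pools of 3 mice, so the p-values measure only the spread among them. Intervals are exact at 95% and cover counting error only. The gene set and the lists were chosen with earlier results of these data known. Genes named were the 10 members, up to 3 genes of each list with the widest range of tissue means, and the 3 genes most like the most variable member. Regions named were the strongest one beyond 3 kb, those private to a tissue, and, picked after their values were seen, the further promoter and intron regions of Trib3, Slc1a5, Phgdh, Psat1 and Ddit3 and the Slc7a11 regions of fed white adipose. Tests and tag solving were checked on simulated data. The software was numba 0.67.0 and scipy 1.17.1, with numpy 2.4.6, matplotlib 3.10.9, pandas 2.3.3 and Python 3.11.15, with seed 1.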

Additional observations from a re-analysis of the deposited data

Results flagged for a closer look

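The fasting minus fed promoter percentile of 2 genes went opposite ways by 10 points or more in different tissues. For Asns it was 11.9 points in muscle and −11 points in spleen, but at equal depth muscle was at −3.83 points, the sign of spleen. For Slc7a11 it was 30.2 points in muscle and 14 points in white adipose, but −34.1 points in spleen and −34.2 points in kidney. At equal depth Slc7a11 in spleen was at −8.87 points, and ranked among promoter peaks only it was at 9.56 points in muscle and −5.95 points in kidney. With 1 library per tissue and state the differences between tissues were not tested.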

How the results depend on the processing

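No paired analysis was possible because each tissue and state had 1 library, numbered 1 throughout, so a block by replicate number could not be fitted. The fasting test is itself paired by tissue. Under the alternatives tried (other peak ranks, merged peaks, a 1000 bp window, protein-coding starts, stricter q, equal depth, each tissue left out), 4 to 7 of the 10 genes differed between tissues by promoter percentile. Over all genes the share ran from 29.8% to 50.3%. The adjusted fasting test called 0 genes under any alternative. That 0 is no measure of stability, since in the main promoter test 3078 genes would have had to reach the smallest p, and 181 did. The smallest p was 0.00781 with 8 tissues and 0.0156 with 1 tissue left out (exact permutation test). Over all genes the promoter tissue calls went from 9476 to 6203 at equal depth and to between 5793 (without spleen) and 7854 (without heart) with 1 tissue left out, and the gene body calls from 11375 to between 7121 (without kidney) and 10344 (without white adipose). Gene body calls among the 10 genes ranged from 3 to 5 with 1 tissue left out, against 34.4% to 50.1% of all genes. They were 7 with merged peaks (37.6% of all genes), with q under 1e-06 (60.4%) and at equal depth (53.6%). They were 6 with q under 0.01 (53.7%) and 4 without the extension (48.5%). With q under 1e-06, 6 of the 10 genes kept a promoter peak in all 16 libraries. The share of all genes that did was not computed, so this count cannot be called particular to these genes. The peaks left at that cutoff ran from 88689 in fasting heart to 286906 in fed brown adipose. Differences of 10 points with fasting higher numbered 11 by fold enrichment, 10 by rank among promoter peaks and 3 to 6 with 1 tissue left out, the lowest without liver. With fasting lower they numbered 8 by rank among promoter peaks, 8 at equal depth and 3 to 5 with 1 tissue left out, the lowest without spleen. Shares over all genes were not computed for these alternative counts either. Asns in muscle turned to −3.83 points at equal depth. The tissue calls of single genes held in 135 of 160 promoter values and 113 of 130 gene body values. Other calls lost were Atf4 (0.0526 by fold, 0.0567 among promoter peaks), Ddit3 (0.079 at equal depth), Psat1 (0.153 by fold, 0.0798 among promoter peaks, 0.0549 at equal depth), Slc1a5 (0.181 by fold) and, in the gene body without extension, Trib3 (0.213) and Chac1 (0.0966). Gained in the gene body were Asns (0.00818 to 0.0463 under 4 alternatives), Atf4 (0.0258 with merged peaks), Phgdh (0.0227 to 0.0303 under 3) and Slc7a11 (0.0477 at equal depth, 0.0457 without liver), and by promoter Phgdh (0.0235 to 0.0475 under 5), Sesn2 (0.043 by fold, 0.0232 without liver) and Trib3 (0.0367 without liver). The cause was not tested. The 11 shifts within a tissue had the same direction in tags over background less the median over genes, an alternative chosen after seeing the data. The tags were solved from the fold and p of the same peaks, so the shared direction is not separate support.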
